A study of Mus musculus with 18 samples.

Results

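The 5 mouse genes Sla, Ttc39c, St3gal6, Srr and Rasl12 are described because deletion of Hif1a and deletion of Ahr placed them on opposite sides of their controls. They were chosen by name from an earlier look at the same Hif1a and Ahr effects, and each symbol matched 1 of the 56953 gene identifiers in the count files. The cells were natural killer (NK) cells, cytotoxic lymphocytes of innate immunity, taken from mouse spleen and grown for 7 days in 1% oxygen with 1700 U/ml of recombinant human interleukin 2. The 3 mouse lines were homozygous for loxP-flanked (fl/fl, here flox) Hif1a, Ahr, or Hif1a together with Ahr. In each line 3 libraries came from cells without Cre (Hif1a flox, Ahr flox and Hif1a Ahr flox) and 3 from cells that also carried Ncr1 iCre (Hif1a KO, Ahr KO and Hif1a Ahr KO), 18 libraries in all. The control genotype is written Ahr fl/f in the labels of the Ahr flox and Hif1a Ahr flox libraries. Ncr1, the gene of an activating NK receptor, drives this Cre, so deletion is limited to cells that turn on Ncr1. Every group shared the low oxygen and the interleukin 2, no group was kept in normal oxygen, and no group carried Cre without a flox allele. An effect of Cre and an effect of the deletion therefore cannot be told apart within a line.

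Hif1a encodes the part of HIF-1 that is stabilised when oxygen is low, and Ahr encodes the aryl hydrocarbon receptor (AhR), which is activated by ligands. Both proteins belong to the bHLH-PAS family and bind DNA as pairs with the same partner, Arnt. HIF-1 recognises the core letters ACGTG or GCGTG, and AhR recognises GCGTG. Of the 5 genes, Sla encodes SLAP, an adaptor that binds the kinases Zap70 and Syk and the ubiquitin ligase Cbl and dampens antigen receptor signalling. Rasl12 encodes a small GTPase of the Ras family. St3gal6 encodes a sialyltransferase that caps terminal galactose with sialic acid, a step in making selectin ligands. Srr encodes serine racemase, which turns L-serine into D-serine. Ttc39c encodes a protein with tetratricopeptide repeats, a fold that makes contacts between proteins.

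The letters shared by the DNA sites of both factors are shown first, because they are what a reader would look for beside genes that answer to both. RefSeq promoter windows of 300 bases (250 before and 50 from the transcript start, build GRCm38.p6) were matched for St3gal6 (2 windows), Srr (1 window) and Rasl12 (1 window). No window was matched for Sla, and Ttc39c was left out of this search. ACGTG and GCGTG were searched on both strands; capitals mark a match, and CACGC is GCGTG read from the other strand.
Rasl12, chr9:65398442-65398471, plus strand: tggaggcCACGCcccgtcCACGCccctcct
Rasl12, chr9:65398495-65398523, plus strand: gagtgactggggGCGTGcaactagcagcc
Srr, chr11:74925921-74925949, minus strand: cggagatccgcaCACGCtccaacccctcc
The first Rasl12 stretch holds matches whose first bases lie 39 and 28 bases before the RefSeq start, and the other lies just after it. The Srr match begins at base 12 of the transcript. Neither St3gal6 window held ACGTG or GCGTG. Over the 32851 windows of that table, 32.4% held GCGTG, 19.6% held ACGTG and 43.8% held at least one of them, so such matches were common. A match describes letters in a window and is not a binding site.

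Levels are given as CPM (estimated counts scaled to library size) adjusted with TMM factors, for each library in the order of replicates 1, 2 and 3. Library totals ran from 54420649 to 55732940 estimated counts, and the members had between 172 and 8423 estimated counts per library. NK cell markers summed to between 14125 and 30264 CPM per library over 10 genes. T cell markers summed to 93.5 to 245 CPM over 10 genes, myeloid markers to 69 to 171 CPM over 10 genes, and B cell markers to 0.143 to 1.18 CPM over 5 genes. All 12 tested HIF-1 targets of the fixed list were lower in Hif1a KO and in Hif1a Ahr KO cells. Of 7 AhR targets 4 were lower in Ahr KO and 5 in Hif1a Ahr KO cells. Gene-level counts of Hif1a itself were higher in Hif1a KO cells (180 ± 32 CPM beside 60.3 ± 4.28 in Hif1a flox cells, SD, n = 3). Those of Ahr were not called in any line. Among the controls, however, Ahr stood at 31.6 ± 6.7 CPM in Hif1a flox, 76.5 ± 2.35 in Ahr flox and 66.3 ± 13.1 in Hif1a Ahr flox cells. The part of this difference between lines in the effects compared below was not tested. Counts summed over a gene include RNA without the floxed exon and so are no check of either deletion.

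**Figure D1:**
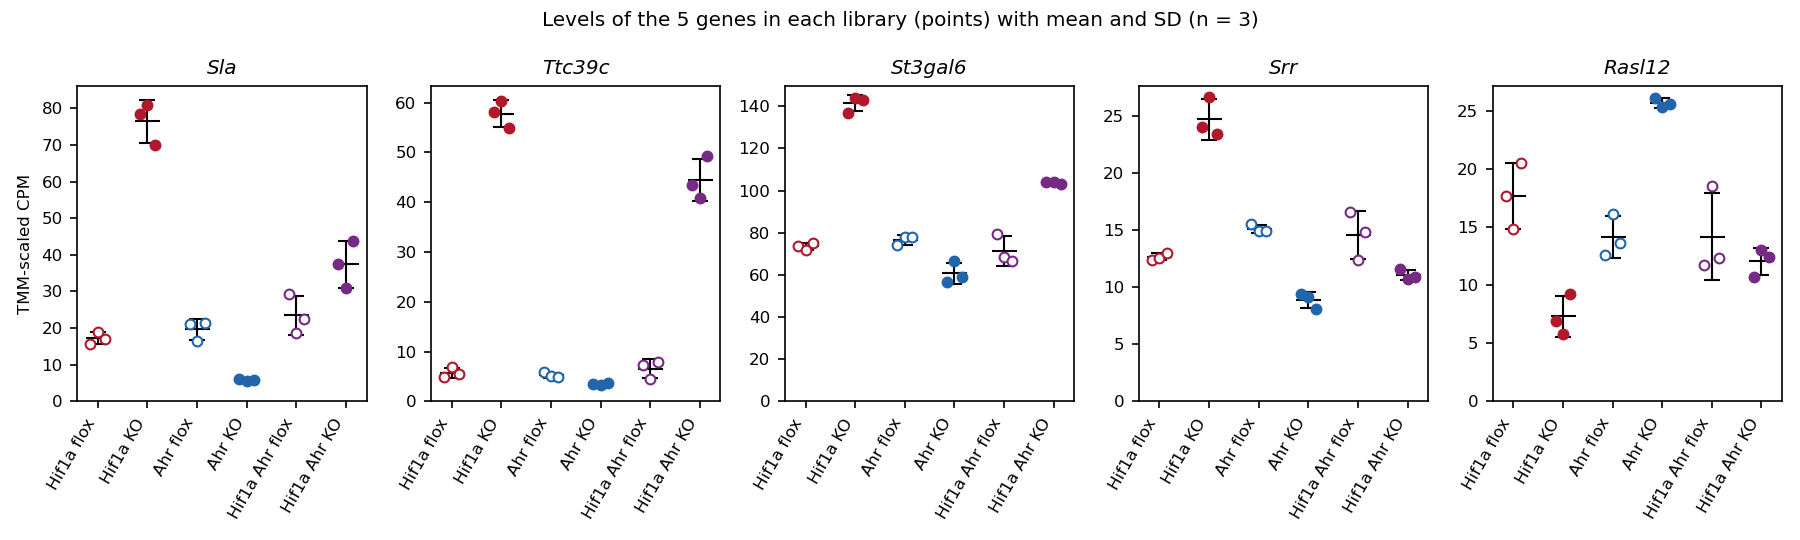
TMM-scaled CPM (vertical axes, each starting at 0) of the 5 genes in the 6 groups. Open points are flox and filled points KO libraries, and bars give mean and SD (n = 3); for Sla the Hif1a KO libraries stand at 69.9 to 81 CPM and the Ahr KO libraries at 5.69 to 6.07 CPM, on either side of all flox libraries.

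Sla was high with Hif1a deleted and low with Ahr deleted, by several fold each way. It stood at 15.7, 18.9 and 17 CPM in Hif1a flox and at 78.4, 81 and 69.9 CPM in Hif1a KO libraries. In the Ahr line it stood at 21.1, 16.4 and 21.4 CPM in flox and at 6.07, 5.69 and 5.94 CPM in KO libraries. In the line with both alleles it stood at 29.2, 18.7 and 22.6 CPM in flox and at 37.5, 30.8 and 43.8 CPM in KO libraries. The KO and flox ranges did not overlap in any of the 3 lines, and the 3 flox groups overlapped one another. The 3 KO groups therefore fell into separate levels, with Ahr KO lowest, Hif1a Ahr KO between and Hif1a KO highest.

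Rasl12 was the member with the reverse order. It stood at 17.7, 14.8 and 20.5 CPM in Hif1a flox and at 6.92, 5.8 and 9.2 CPM in Hif1a KO libraries. It stood at 12.6, 16.1 and 13.6 CPM in Ahr flox and at 26.1, 25.3 and 25.6 CPM in Ahr KO libraries. Its values were 11.7, 18.5 and 12.3 CPM in Hif1a Ahr flox and 10.7, 13 and 12.4 CPM in Hif1a Ahr KO libraries. Here the KO values lay inside or next to the range of all flox libraries, while the single KO groups lay below and above it.

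St3gal6 moved by smaller steps at a higher level. It stood at 73.5, 71.9 and 75.3 CPM in Hif1a flox and at 137, 144 and 143 CPM in Hif1a KO libraries. It stood at 74, 77.9 and 77.8 CPM in Ahr flox and at 56.6, 66.4 and 59.2 CPM in Ahr KO libraries. With both genes deleted it stood at 104, 104 and 103 CPM, beside 79.5, 68.5 and 66.4 CPM in the Hif1a Ahr flox libraries. The ranges separated KO from flox in each line, and the ranges of the 3 flox groups overlapped in the order of their means.

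Srr was the member whose double KO level lay below its controls although its Hif1a KO level lay above them. It stood at 12.4, 12.6 and 13 CPM in Hif1a flox and at 24, 26.7 and 23.4 CPM in Hif1a KO libraries. It stood at 15.5, 14.9 and 14.9 CPM in Ahr flox and at 9.44, 9.11 and 8.1 CPM in Ahr KO libraries. In the third line it stood at 16.6, 12.4 and 14.8 CPM in flox and at 11.6, 10.7 and 10.9 CPM in KO libraries. The Hif1a Ahr KO range lay above the Ahr KO range and below every flox library.

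Ttc39c was low in all controls and high wherever Hif1a was deleted. It stood at 4.83, 6.89 and 5.46 CPM in Hif1a flox and at 58.1, 60.3 and 54.9 CPM in Hif1a KO libraries. It stood at 5.86, 5.01 and 4.89 CPM in Ahr flox and at 3.52, 3.33 and 3.63 CPM in Ahr KO libraries. Its Hif1a Ahr flox libraries had 7.33, 4.39 and 7.99 CPM and its Hif1a Ahr KO libraries 43.4, 40.8 and 49.2 CPM. The KO and flox ranges did not overlap in any line, and the Hif1a Ahr KO range lay below the Hif1a KO range.

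The single deletions chose these genes, so their effects are given as a description. On the log2 scale of the fitted model (± SE), the Hif1a effect was 2.15 ± 0.15 for Sla, 3.33 ± 0.17 for Ttc39c, 0.94 ± 0.07 for St3gal6, 0.96 ± 0.09 for Srr and -1.27 ± 0.18 for Rasl12. The Ahr effect was -1.73 ± 0.16 for Sla, -0.59 ± 0.18 for Ttc39c, -0.33 ± 0.07 for St3gal6, -0.77 ± 0.09 for Srr and 0.86 ± 0.18 for Rasl12. The Hif1a effect minus the Ahr effect came to 3.89 ± 0.22 for Sla, 3.92 ± 0.24 for Ttc39c, 1.28 ± 0.10 for St3gal6, 1.73 ± 0.13 for Srr and -2.14 ± 0.25 for Rasl12. A gene was called at a Benjamini-Hochberg adjusted p under 0.05 in edgeR's quasi-likelihood test over all 16747 genes tested. In the Hif1a line 4 members were called higher and 1 lower, where 35.4% of all genes were called (17.6% higher and 17.8% lower). In the Ahr line 1 was called higher and 3 lower, where 6.92% of all genes were called (2.14% higher and 4.78% lower). KO and flox values did not overlap for 5 of 5 members in the Hif1a line (4 higher and 1 lower), where 49.8% of all genes were so placed (24.8% higher and 25.1% lower). In the Ahr line the same held for 5 of 5 members (1 higher and 4 lower), where 29% of all genes were so placed (13.8% higher and 15.3% lower). The members were chosen on these contrasts, and nothing is read from these counts. The member not called there was Ttc39c (edgeR adjusted p = 0.0565); with same-numbered libraries as pairs it was called (edgeR adjusted p = 0.012), and that fit called 2423 genes in the Ahr line in place of 1159.

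**Figure D2:**
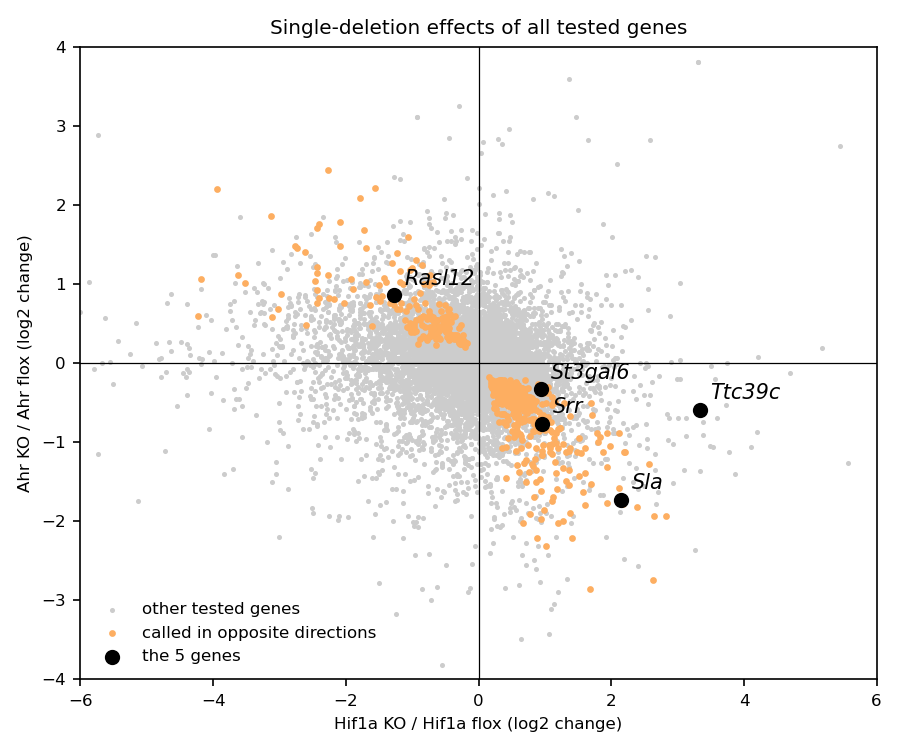
Log2 change in Hif1a KO against Hif1a flox cells (horizontal) and in Ahr KO against Ahr flox cells (vertical) for the 16747 genes tested; 26 genes lie outside the axes. Orange points are the 632 genes called in opposite directions, and black points the 5 members, of which Rasl12 lies upper left and the other 4 lower right.

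Genes on opposite sides numbered 632 (3.77% of all genes), and 4 of the 5 members were among them by their choice. Of these, 454 genes (2.71%) were called higher in Hif1a KO and lower in Ahr KO cells, and 178 genes (1.06%) the other way; 142 genes (0.848%) were called in the same direction in both. Sla, St3gal6 and Srr belong to the first class and Rasl12 to the second, while Ttc39c falls outside because of its Ahr value. By the size of the difference between the single effects, Sla was number 7, Srr number 97 and St3gal6 number 168 of the 454, and Rasl12 was number 52 of the 178.

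The 6 libraries of the line with both deletions set neither side of the single comparisons, and there the members were tested. All 18 libraries share 1 estimate of the spread, so these 6 do enter the p-values of the single comparisons. Likewise, the libraries that chose the members enter the p-values of this test through the spread, so it is not fully independent of the choice. In the line with both deletions, 3 members rose, 1 fell and 1 was not called. That made 4 of 5 called in all, where 31.3% of all genes were called (14.8% higher and 16.5% lower). Ttc39c rose by 2.76 ± 0.17 (log2, SE; edgeR adjusted p = 3.04e-09), a 6.76-fold rise. Sla rose by 0.67 ± 0.15 (edgeR adjusted p = 0.00254) and St3gal6 by 0.54 ± 0.07 (edgeR adjusted p = 8.99e-06). A fit of only the 6 libraries of this line takes no spread from the libraries that chose the members. Its edgeR adjusted p-values were weaker, at 7.04e-05 for Ttc39c, 0.0285 for Sla and 0.00262 for St3gal6. In these 3 genes the direction was that of the Hif1a deletion alone, and the KO range lay above the flox range.

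Srr fell by 0.40 ± 0.09 in the same line (edgeR adjusted p = 0.00344), the direction of the Ahr deletion alone. Its call was lost in a fit of only the 6 libraries of that line (-0.39; edgeR adjusted p = 0.051). Rasl12 stood at -0.24 ± 0.18 with a 95% interval from -0.61 to 0.14 (edgeR adjusted p = 0.35). Without Hif1a Ahr flox replicate 2, its highest flox library, Rasl12 came to 0.00 (edgeR adjusted p = 0.992). KO and flox values did not overlap for 3 members on the higher and 1 on the lower side in this line, where 37.2% of all genes were so placed (17.6% higher and 19.6% lower).

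**Figure D3:**
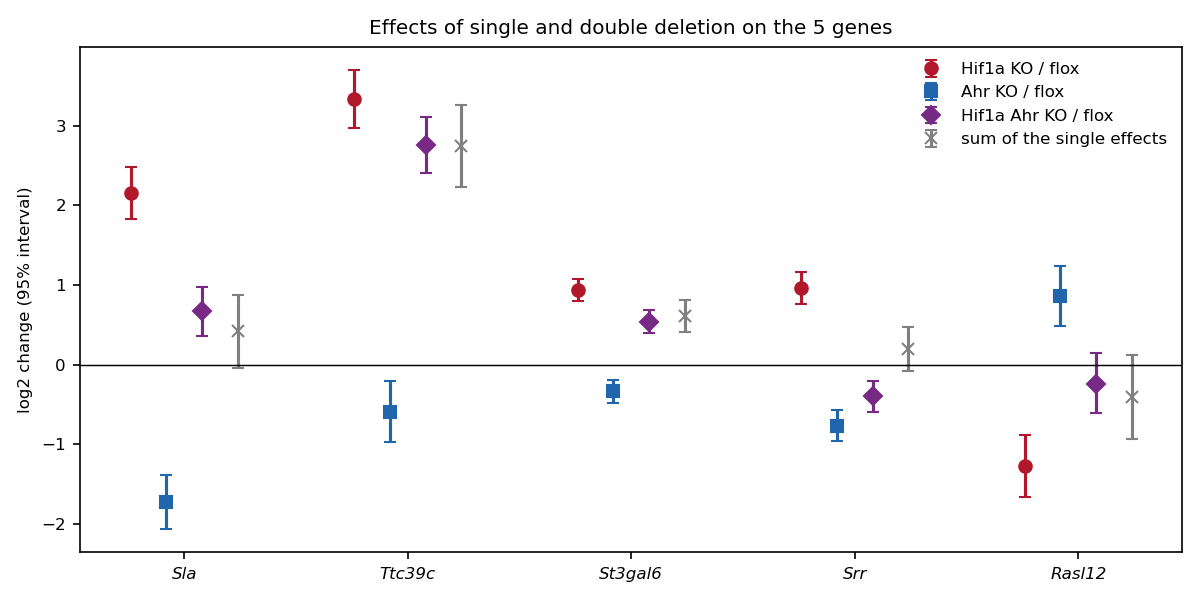
Log2 change (vertical axis) of the 5 members for each deletion against the flox group of its line, with the sum of the single effects beside it; bars are 95% intervals. The Hif1a Ahr effect lies next to the sum in 4 members and below it in Srr, where the double effect is -0.40 and the sum 0.19.

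Set beside the sum of the single effects on the log2 scale, the double effect lay close to it in 4 members. For Ttc39c the sum was 2.74 ± 0.24 and the double effect 2.76, a departure of 0.01 ± 0.28 (SE). For St3gal6 the sum was 0.61 ± 0.10 and the departure -0.07 ± 0.12, and for Sla the sum was 0.42 ± 0.22 and the departure 0.25 ± 0.26. For Rasl12 the sum was -0.41 ± 0.25 and the departure 0.17 ± 0.31. For Srr the sum was 0.19 ± 0.13 and the departure -0.59 ± 0.16. These sums contain the values that chose the genes, so the departures are a description, and that of Srr was not called over all genes (edgeR adjusted p = 0.537). The 95% intervals of the departures, each for 1 gene with no adjustment over genes, ran from -0.31 to 0.80 for Sla, from -0.59 to 0.62 for Ttc39c, from -0.32 to 0.18 for St3gal6 and from -0.48 to 0.82 for Rasl12; for Srr it ran from -0.93 to -0.25.

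The same quantity over the whole table gives the scale of these values. The absolute departure had a median of 0.18 over 16747 genes, and 6 genes (0.0358%) were called for a departure by edgeR, with 998 at an unadjusted p under 0.05. Among the 454 genes higher in Hif1a KO and lower in Ahr KO cells, the median double effect was 0.01, beside medians of 0.59 and -0.48 for the single effects. In that class 69 genes (15.2%) were called higher with both deletions, 56 (12.3%) lower and 329 not called. Over all genes 14.8% were called higher and 16.5% lower, so these shares were near those of all genes. Among the 178 genes of the reverse class the median double effect was 0.00, with 30 genes (16.9%) called higher, 33 (18.5%) lower and 115 not called. Sla and St3gal6 thus belong to the 69, Srr to the 56 and Rasl12 to the 115.

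**Figure D4:**
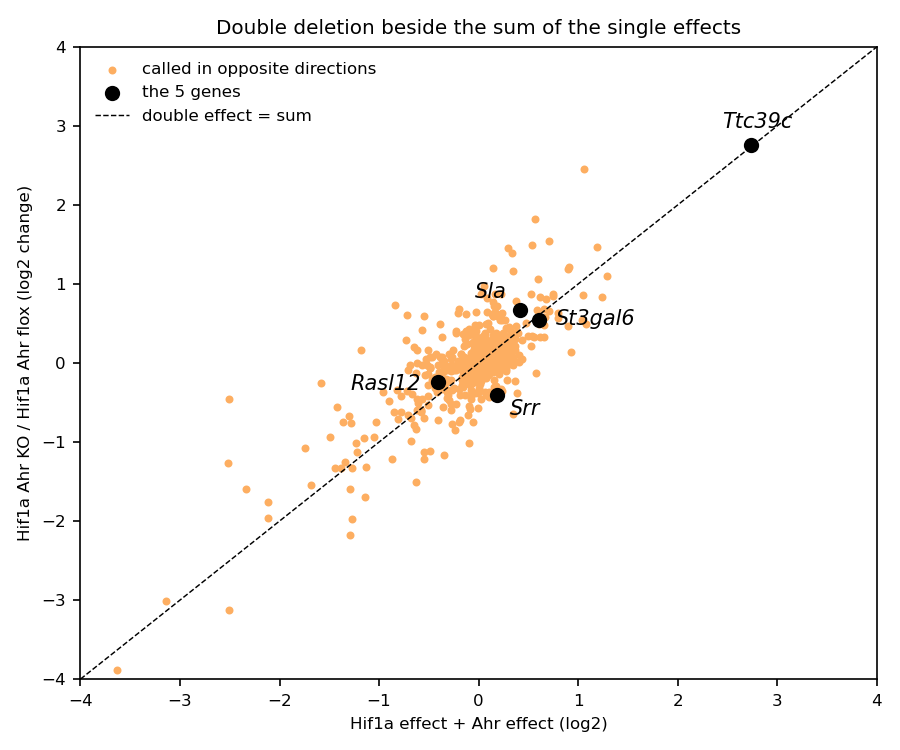
Log2 change in Hif1a Ahr KO against Hif1a Ahr flox cells (vertical) beside the sum of the Hif1a and Ahr effects (horizontal) for the 632 genes called in opposite directions (orange) and the 5 members (black). The dashed line marks equal values; Ttc39c lies on it at 2.76 and Srr lies below it at -0.40.

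Levels of KO libraries were also set side by side across lines, with no test because the single KO levels chose the genes. In Hif1a Ahr KO cells Sla stood at 0.489 times its Hif1a KO mean and 6.34 times its Ahr KO mean. Ttc39c stood at 0.769 and 12.7 times these means, St3gal6 at 0.734 and 1.71 times, and Srr at 0.449 and 1.25 times. Rasl12 stood at 1.65 times its Hif1a KO mean and 0.469 times its Ahr KO mean. Every member thus lay between its levels in the single KO groups, with Ttc39c nearest to Hif1a KO and Srr nearest to Ahr KO on the log2 scale. The ratios between flox means of different lines ran from 0.798 for Rasl12 to 1.37 for Sla.

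Marker levels differed between groups too. The 10 NK markers summed to 20483 to 24814 CPM in Hif1a flox and 14125 to 15980 CPM in Hif1a KO libraries. They summed to 18910 to 25834 CPM in Ahr flox and 25529 to 30264 CPM in Ahr KO libraries, and to 18528 to 23801 and 18972 to 20114 CPM in Hif1a Ahr flox and KO libraries. In the single deletions these sums were low where Rasl12 was low and high where it was high, and ran against the other 4 members. The Ahr flox and Ahr KO ranges overlapped, however. Gzmb, Prf1 and Il2rb made up most of the sums and were not called in Ahr KO cells (edgeR adjusted p = 0.354, 0.154 and 0.155). Of the 10 markers, 4 were called higher and 5 lower in Hif1a KO, and 2 higher and 1 lower in Ahr KO cells. In Hif1a Ahr KO cells 3 were called higher and 1 lower. Over all genes, 35.4% were called in Hif1a KO, 6.92% in Ahr KO and 31.3% in Hif1a Ahr KO cells. Ncr1, which drives the Cre, was among the markers called higher in each line. Its log2 changes were 0.92 ± 0.10, 0.97 ± 0.10 and 1.06 ± 0.10 (edgeR adjusted p = 2.81e-06, 1.85e-05 and 5.19e-07). The part of Cre in this rise was not tested. Sla is also expressed by myeloid, B and T cells. The 10 T cell markers summed to 176 to 213 CPM in Hif1a flox and 93.5 to 122 CPM in Hif1a KO libraries. They summed to 207 to 225 CPM in Ahr flox and 142 to 157 CPM in Ahr KO libraries, and to 222 to 245 and 113 to 160 CPM in Hif1a Ahr flox and KO libraries. The sums were thus lower on the KO side in all 3 lines. Cd3g, Cd3d, Trbc2 and Trac were called lower in Hif1a KO cells, and Cd3g and Cd3d alone in Ahr KO and in Hif1a Ahr KO cells. The median log2 change of the 10 markers was -0.31 in Hif1a KO, 0.79 in Ahr KO and 0.13 in Hif1a Ahr KO cells, so median and sum differ in sign in the last 2. Cd6 was called higher in Hif1a Ahr KO cells (3.38 ± 0.78; edgeR adjusted p = 0.00416), from 0.225 to 2.37 CPM, and Cd3e stood at group means of 0.349 to 2.98 CPM. Myeloid markers summed to 101 to 160 and 90.5 to 111 CPM in Hif1a flox and KO, to 124 to 142 and 134 to 171 CPM in Ahr flox and KO, and to 86.1 to 127 and 69 to 85.5 CPM in Hif1a Ahr flox and KO libraries. Itgam and Cd68 made up most of these sums, and Lyz2, S100a8 and S100a9 stood at group means of 1.66 CPM or less. Of the 7 myeloid markers tested, 1 was called higher and 5 lower in Hif1a KO, 1 lower in Ahr KO and 6 lower in Hif1a Ahr KO cells. Cd68 had log2 changes of 0.75 ± 0.20, -1.04 ± 0.20 and 0.12 ± 0.20 for deletion of Hif1a, of Ahr and of both (edgeR adjusted p = 0.00847, 0.00631 and 0.706), on the same sides as Sla in the single deletions. Itgam, which NK cells also express, had -1.03 ± 0.24, 0.48 ± 0.24 and -0.92 ± 0.25 (edgeR adjusted p = 0.00471, 0.29 and 0.0119). The part of these shifts in the members' changes was not tested, and in bulk RNA fewer cells of a type and less RNA per cell cannot be told apart.

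Genes of SLAP's pathway were called in both directions. As background for this gene list and those below, 31.3% of all genes were called in Hif1a Ahr KO cells. The shares were 35.4% in Hif1a KO and 6.92% in Ahr KO cells. Of the 21 other genes of receptor signalling that were tested, 5 were called higher and 4 lower in Hif1a Ahr KO cells, with a median log2 change of -0.02 beside -0.02 over all genes. Zap70, a kinase that SLAP binds, fell by 0.86 ± 0.08 there (edgeR adjusted p = 2.3e-07), while the related kinase Syk rose by 0.67 ± 0.09 (edgeR adjusted p = 2.8e-05). The adaptor genes Sh2d1b1 (EAT-2) and Lat fell by 0.46 ± 0.06 and 0.51 ± 0.11 (edgeR adjusted p = 5.88e-06 and 0.00156). Sla2, the paralog of Sla, stood at 97.6 and 103 CPM in Hif1a Ahr flox and KO cells (log2 change 0.08 ± 0.07; edgeR adjusted p = 0.45). In Hif1a KO cells 3 of the 21 were higher and 9 lower, and in Ahr KO cells 2 were higher and 2 lower.

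Among 15 other tested genes of sialylation and selectin ligand synthesis, 6 were called higher and 4 lower in Hif1a Ahr KO cells, with a median of 0.28. St3gal1, another sialyltransferase, rose by 1.29 ± 0.14 (edgeR adjusted p = 2.21e-06) from 8.11 to 19.8 CPM, and the galactosyltransferase B4galt1 rose by 0.52 ± 0.07 (edgeR adjusted p = 2e-05). The sialic acid transporter gene Slc35a1 rose by 0.38 ± 0.08 (edgeR adjusted p = 0.00187). Gne, which starts sialic acid synthesis, fell by 0.51 ± 0.10 (edgeR adjusted p = 0.000518). Of the St3gal family, St3gal3 and St3gal4 also rose, by 0.28 ± 0.07 and 0.29 ± 0.10, St3gal5 fell by 0.42 ± 0.14, and St3gal2 stood at -0.32 ± 0.18 (edgeR adjusted p = 0.193). In Hif1a KO cells 6 of the 15 were higher and 4 lower; in Ahr KO cells 3 were lower, among them St3gal2 (-0.78 ± 0.18) and St3gal5 (-0.83 ± 0.14), and St3gal1 stood at -0.20 ± 0.15 (edgeR adjusted p = 0.479).

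Of 11 other tested genes of serine metabolism and transport, 5 were called higher and 1 lower in Hif1a Ahr KO cells, with a median of 0.37, while Srr fell. The amino acid transporter Slc38a1 rose by 0.78 ± 0.08 (edgeR adjusted p = 6.38e-07), and Shmt2 and Psat1, enzymes that use and make serine, rose by 0.49 ± 0.11 and 0.57 ± 0.13 (edgeR adjusted p = 0.00167 and 0.00265). Sdsl, a serine dehydratase homolog, fell from 0.322 to 0.0831 CPM (edgeR adjusted p = 0.00671). In Hif1a KO cells 5 of the 11 were higher and 1 lower. In Ahr KO cells 1 was lower: Dao, named here after its values were seen, whose enzyme degrades D-amino acids. Its Ahr effect was -1.03 ± 0.28, with 1.16 CPM in flox and 0.566 CPM in KO cells. Dao was also called higher in Hif1a KO cells (1.10 ± 0.26; edgeR adjusted p = 0.00327). It was not called in Hif1a Ahr KO cells (0.49 ± 0.26; edgeR adjusted p = 0.171).

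Small Ras family GTPases other than Rasl12 gave 1 called higher and 4 lower of 13 tested in Hif1a Ahr KO cells, with a median of -0.13. Rasl11b fell by 1.45 ± 0.18 and Rasl11a by 1.90 ± 0.48 (edgeR adjusted p = 9.42e-06 and 0.0057). Rras fell by 0.31 ± 0.11 (edgeR adjusted p = 0.0321). In Hif1a KO cells 2 of the 13 were higher and 4 lower, and in Ahr KO cells 1 was lower. The relative of Ttc39c that could be tested, Ttc39b, stood at 76.5 and 97.2 CPM in Hif1a Ahr flox and KO cells and rose by 0.35 ± 0.08 (edgeR adjusted p = 0.00415).

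By GENCODE M21 the members lie on 5 chromosomes: Sla on 15, Ttc39c on 18, St3gal6 on 16, Srr on 11 and Rasl12 on 9. Sla lies within Tg (thyroglobulin) on the opposite strand. Tg stood at group means of 0.124 and 0.809 CPM in Hif1a flox and KO, 0.112 and 0.0314 CPM in Ahr flox and KO, and 0.133 and 0.536 CPM in Hif1a Ahr flox and KO cells. Its log2 changes were 2.68 ± 0.43, -1.79 ± 0.70 and 1.98 ± 0.44 (edgeR adjusted p = 0.000102, 0.142 and 0.00202), so the Ahr change was not called. These levels were far below those of Sla. Srr overlaps Smg6, a gene of nonsense-mediated decay, on the opposite strand, and also overlaps Tsr1 on that strand. Smg6 fell from 73.7 to 50 CPM in Hif1a Ahr KO cells (-0.56 ± 0.09; edgeR adjusted p = 9.92e-05), and its log2 changes were 0.41 ± 0.09 in Hif1a KO and -0.78 ± 0.09 in Ahr KO cells. The library kit keeps strand, but the strand setting of the counting is not given in the sources used here. Overlap of exons was not examined. Whether reads of Srr and Smg6 or Tsr1, of Sla and Tg, or of St3gal6 and Dcbld2 were counted for the wrong gene was therefore not tested.

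The tested neighbours showed a range of changes. Of the 3 protein-coding genes on each side of Rasl12, Kbtbd13 had a log2 change of -2.68 ± 0.17 in Hif1a KO cells and fell by 2.03 ± 0.16 in Hif1a Ahr KO cells (edgeR adjusted p = 4.31e-08), whereas Mtfmt on the other side stood at 0.07 ± 0.06 in the latter (edgeR adjusted p = 0.427). Beside Srr, Tsr1 stood at 0.09 ± 0.09 in Hif1a Ahr KO cells (edgeR adjusted p = 0.455), and Hic1, an AhR target, fell by 2.21 ± 0.44 (edgeR adjusted p = 0.00196). Sgsm2, the next gene after Tsr1, had log2 changes of 0.83 ± 0.12 in Hif1a KO, -0.86 ± 0.12 in Ahr KO and 0.05 ± 0.12 in Hif1a Ahr KO cells. Beside Sla, Ndrg1, a HIF-1 target, fell by 1.34 ± 0.14 (edgeR adjusted p = 2.43e-06) and Phf20l1 stood at 0.05 ± 0.07 (edgeR adjusted p = 0.594). Beside Ttc39c, Npc1, a cholesterol exporter of lysosomes, rose by 0.69 ± 0.11 (edgeR adjusted p = 0.000143), and Lama3 stood at 0.79 ± 0.42 (edgeR adjusted p = 0.165). Beside St3gal6, Cpox stood at -0.00 ± 0.07 (edgeR adjusted p = 0.99) and Dcbld2, which overlaps it on the opposite strand, rose by 0.40 ± 0.12 (edgeR adjusted p = 0.0193). Near St3gal6, Cldnd1 had 0.93 ± 0.14, -0.34 ± 0.14 and -0.02 ± 0.13 for Hif1a, Ahr and double deletion (edgeR adjusted p = 5.58e-05, 0.154 and 0.936). Near Ttc39c, Osbpl1a had -0.51 ± 0.19, 1.05 ± 0.19 and 0.35 ± 0.19 (edgeR adjusted p = 0.0505, 0.00384 and 0.183). Values of the other neighbours are not reported here.

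Genes with the most similar profile were found by Pearson's r of log2 CPM over the 18 libraries. These libraries form 6 groups, so r mainly reflects group levels and is given as a description. Closest to Sla were Dpy19l3 (r = 0.991), Emb (r = 0.983), which encodes the adhesion protein embigin, and Zfp36l1 (r = 0.982), which encodes a protein that destabilises mRNA. Emb stood at group means of 124 and 475 CPM in Hif1a flox and KO, 147 and 43.1 CPM in Ahr flox and KO, and 186 and 292 CPM in Hif1a Ahr flox and KO cells, the same order of groups as Sla. Closest to Rasl12 were Creb3l1 (r = 0.974), Rab27a (r = 0.973), which encodes a GTPase of granule release, and Rasa4 (r = 0.971), which encodes a Ras inhibitor. Rab27a stood at 278 and 174 CPM, 241 and 326 CPM, and 233 and 222 CPM in flox and KO cells of the Hif1a, Ahr and Hif1a Ahr lines.

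For Srr the closest were Stard6 (r = 0.962), Pdcd4 (r = 0.961), an inhibitor of translation, and Itch (r = 0.961), a ubiquitin ligase. Pdcd4 stood at 60.3 and 96.6 CPM, 66.1 and 43.2 CPM, and 65.7 and 49.3 CPM in flox and KO cells of the 3 lines, and thus like Srr lay below its controls with both deletions. Closest to St3gal6 were Myl12b (r = 0.973), a myosin light chain gene, Enpp5 (r = 0.969) and Stard3nl (r = 0.968). Closest to Ttc39c were Tpgs2 (r = 0.988), Kremen1 (r = 0.988), a Wnt pathway receptor gene, and Antxr2 (r = 0.987). Among these last 3, Tpgs2 had an Ahr effect of -0.04 ± 0.07 beside a Hif1a effect of 0.80 ± 0.07, so its likeness to Ttc39c lay in the groups with Hif1a deleted. Between members r ran from 0.54 (Ttc39c and Srr) to 0.94 (Ttc39c and St3gal6), and with Rasl12 it was negative, down to -0.95 for Sla.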

How the data were processed

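The members, gene lists and naming rule were chosen with earlier results of these data known. Per the submitters' processing notes, the authors used Trim Galore 0.6.4, kallisto 0.4.6, edgeR 3.17 and build GRCm39; settings and annotation are not given in the sources used here. The deposited expected counts are per-gene estimates, not normalised (64.9% to 67.3% of values above 0 were not whole within 1e-06). The deposited log2 CPM values equal log2 CPM computed here with prior count 2 (largest difference 7.1e-15).

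Tests ran in R 4.3.3 with edgeR 4.0.16 on the estimated counts: TMM, filterByExpr, 1 mean per group over 18 libraries, robust quasi-likelihood F tests, 2-sided, Benjamini-Hochberg over 16747 genes. All 5 members passed the filter. SE is the log2 change over the square root of F. Counts were rounded for DESeq2 1.42.0 only; limma 3.58.1 voom was another alternative. The fit was checked on simulated counts.

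Of 56953 identifiers 52029 had a symbol; the others hold 0.315% of counts. GENCODE M21 (previous build) gave chromosomes, gene order and overlaps of whole genes only. Named genes were the members, the 3 most similar genes each (mean of at least 1 CPM), up to 4 called genes per list by adjusted p, family members, 3 neighbours a side and overlapping genes. The values of 1 gene that this rule names are not reported here. Replicates of a group differed 16.3 to 68.1 times more than counting error (chi-square per degree of freedom). Libraries are labelled biological replicates; animals or pools are not stated. Same-numbered KO and flox libraries deviated together in the Hif1a line (correlation 0.3 to 0.54) and Ahr line (0.47 to 0.55) but not in every pair of the Hif1a Ahr line (0.08 to 0.47).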

Additional observations from a re-analysis of the deposited data

Results flagged for a closer look

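In 9 cases every KO library lay on one side of its flox libraries in 1 line and on the opposite side in another. These differences chose the genes or contain values that did, so the fitted p-values are no independent evidence and are not given; on independent data the difference was not tested. The Hif1a effect minus the Ahr effect (log2) was 3.89 for Sla, 3.92 for Ttc39c, 1.28 for St3gal6, 1.73 for Srr and -2.14 for Rasl12. The Hif1a Ahr effect minus the Ahr effect was 2.40 for Sla, 3.35 for Ttc39c and 0.87 for St3gal6. For Srr the Hif1a Ahr effect minus the Hif1a effect was -1.36: its level lay above the controls with Hif1a deleted and below them with both genes deleted.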

How the results depend on the processing

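Over 25 alternative settings, 123 of 125 values of the members in the Hif1a Ahr line kept their direction and their side of the threshold; the single effects chose the genes, and their stability is no evidence. Fits of only the lines compared called 3100 genes in the Hif1a Ahr line in place of 5245, took Srr there to -0.39 (no longer called) and called Ttc39c in the Ahr line (-0.59). DESeq2 also called Ttc39c there (-0.58). With the replicate block, pairs called 2423 genes in the Ahr line in place of 1159 and Ttc39c was called there (-0.59); the block changed no other member call. Leaving out 1 library at a time, genes called in the Ahr line ran from 467 to 1382: 467 without Ahr flox replicate 1, 557 without Ahr flox replicate 3, and 761, 536 and 679 without Ahr KO replicates 1, 2 and 3. Ttc39c was called there without Hif1a Ahr flox replicate 2 or 3 or Hif1a flox replicate 2. Counts in the Hif1a and Hif1a Ahr lines stayed within 1.5 times. The Ahr effect of Ttc39c was then -0.64 to -0.50 and that of Rasl12 0.79 to 0.97; the latter was not called without Ahr flox replicate 1. In the Hif1a Ahr line Rasl12 ran from -0.36 to 0.00, reached without Hif1a Ahr flox replicate 2, and Sla from 0.53 to 0.85. The cause of these changes was not tested, beyond the fewer libraries. No single library left out changed the call of Sla, Ttc39c, St3gal6 or Srr in the Hif1a Ahr line. The effect of depth on the calls was not tested.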

Other observations

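Among the signalling genes, Ubash3a, which encodes a phosphatase-like suppressor of T cell receptor signalling, was chosen here after its values were seen. It was lower in Hif1a KO cells (-0.86 ± 0.19, log2 and SE; edgeR adjusted p = 0.00204), higher in Ahr KO cells (1.24 ± 0.19; edgeR adjusted p = 0.000774) and higher in Hif1a Ahr KO cells (0.79 ± 0.19; edgeR adjusted p = 0.00406). Its order is thus the reverse of Sla in the single deletions, while with both deletions Ubash3a and Sla were both higher than their controls. Nqo1, a quinone reductase and AhR target, had log2 changes of 2.83, -1.93 and 0.47 (the last not called; edgeR adjusted p = 0.163) for deletion of Hif1a, of Ahr and of both. Its group means of 5.7 CPM or less put the KO groups in the same order as for Sla, and it too was picked after its values were seen.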
